A study of Mus musculus with 4 samples.

Results

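The spliceosome is described here through 125 genes of the 34745 genes in the deposited table of BMMs, macrophages grown from mouse bone marrow. The members are all genes whose KEGG pathway entry holds Spliceosome and not Ribosome biogenesis in eukaryotes. In all, 126 genes carried the Spliceosome entry, and Nhp2l1, which is listed in both pathways, was left out. The cells came from 8-week-old male wild-type C57BL/6 mice. After 12 h without FBS they were given 100 ng/mL RANKL for 24 h, the cytokine that turns these precursors into osteoclasts, together with either dimethyl itaconate (DI) or its solvent DMSO. Both groups therefore received RANKL, and the labels give the dose of DI as 20 mM while the study's text gives it in μM. There were 2 libraries in each group. The labels do not say whether they came from separate mice or cultures, so that p-values measure only the spread between these libraries, which may be technical.

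The spliceosome removes introns from new transcripts and joins the exons. The U1 snRNP, a particle of RNA and protein, binds the 5′ splice site, and the U2 snRNP binds the branch site with the help of U2AF. The U4/U6.U5 tri-snRNP then joins, the PRP19 complex stabilizes the active centre, and helicases of the DEAH family drive the steps of the reaction. Rings of Sm and LSm proteins surround the snRNAs. SR proteins generally promote the use of nearby exons, and hnRNP proteins bind the transcript and often repress them. The exon junction complex is left on the spliced mRNA. The deposited values are read counts per gene, so they give the level of the mRNA of each factor and hold no information on splice isoforms or on protein.

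The libraries held 17843712 and 19403480 counts with DI and 17979114 and 16085692 with DMSO. The members took 1.13% and 1.12% of all counts with DI and 1.36% and 1.35% with DMSO. These are shares of raw counts and overstate the difference seen after scaling. By library size alone the typical tested gene was lower with DI too, at a median of −0.10 on the log2 scale. After scaling with TMM factors, as used below, the members summed to 89.6% of their DMSO level. Macrophage markers were abundant in every library, with a summed level of 28798 and 29574 CPM (counts scaled to a common library total with TMM factors) with DI and 23426 and 22576 with DMSO, and 5 of their 9 identifiers were higher and 1, Fcgr1, was lower. The summed level of 8 osteoclast markers was 222 and 205 CPM with DI and 337 and 323 CPM with DMSO, and 5 of them were lower and 1, Itgb3, was higher. Markers of B cells, T and NK cells, mast cells and erythroid cells summed to at most 0.699 CPM in any library, with Pax5, Cd3e and Fcer1a at 0 in all 4 libraries. Those of neutrophils ranged from 7.89 to 9.90 CPM with Ly6g at 0, and those of stromal cells from 38.7 to 48.3 CPM with Lum at 0, and none of the tested ones was called. The part of the shift in macrophage and osteoclast markers in the results on splicing factors was not tested. In these bulk samples, fewer cells of a type and less RNA per cell cannot be told apart.

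Promoters are shown for 4 members on different chromosomes that were lower together. RefSeq gave a promoter for 98 of the 125 members, and for 24 of the 25 that were lower with DI. The sequences are the 250 bases upstream of the transcription start on GRCm38.p6, written 5′ to 3′ on the strand of the gene. Srsf2 (chr11:116853095-116853344, minus strand) and Srsf7 (chr17:80207306-80207555, minus strand) encode SR proteins, Prpf38b (chr3:108911730-108911979, minus strand) encodes a factor related to the tri-snRNP protein PRP38, and Rbmx (chrX:57393037-57393286, minus strand) encodes hnRNP G. Capitals mark matches, on either strand, to a GC box, a CCAAT box, an ETS motif, a TATA box or an antioxidant response element core.
Srsf2: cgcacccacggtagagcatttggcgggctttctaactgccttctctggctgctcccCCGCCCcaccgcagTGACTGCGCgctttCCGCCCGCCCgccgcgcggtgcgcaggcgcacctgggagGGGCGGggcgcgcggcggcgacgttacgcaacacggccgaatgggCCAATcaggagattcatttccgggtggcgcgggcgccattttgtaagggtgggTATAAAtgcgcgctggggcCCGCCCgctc
Srsf7: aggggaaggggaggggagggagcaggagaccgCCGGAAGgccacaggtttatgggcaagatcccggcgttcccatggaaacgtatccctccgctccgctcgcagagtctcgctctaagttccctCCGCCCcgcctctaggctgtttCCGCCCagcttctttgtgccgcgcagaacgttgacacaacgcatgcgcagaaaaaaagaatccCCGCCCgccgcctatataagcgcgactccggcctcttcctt
Prpf38b: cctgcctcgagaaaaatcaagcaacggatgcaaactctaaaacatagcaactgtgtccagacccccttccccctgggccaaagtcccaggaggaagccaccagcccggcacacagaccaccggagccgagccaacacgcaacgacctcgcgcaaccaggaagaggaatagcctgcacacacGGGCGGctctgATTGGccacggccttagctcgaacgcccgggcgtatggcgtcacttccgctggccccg
Rbmx: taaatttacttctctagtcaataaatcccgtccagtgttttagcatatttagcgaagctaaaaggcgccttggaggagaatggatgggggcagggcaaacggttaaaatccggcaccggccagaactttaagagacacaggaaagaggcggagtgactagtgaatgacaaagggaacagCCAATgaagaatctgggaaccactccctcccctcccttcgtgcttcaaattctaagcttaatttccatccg
These 4 differed in which motifs they held. Srsf2 held GC boxes, a CCAAT box, a TATA box and an antioxidant response element core, Srsf7 held an ETS motif and GC boxes, Prpf38b held a GC box and a CCAAT box, and Rbmx held a CCAAT box alone. Of the tested genes with a promoter, 40.8% held the CCAAT box (CCAAT), compared with 44.8% of 96 tested members and 62.5% of 24 members lower with DI. The ETS motif (CCGGAAG) was in 16.5% of the tested genes, 36.5% of the tested members and 33.3% of the members lower with DI. For the GC box (GGGCGG) the shares were 63.9%, 64.6% and 62.5%, and for the antioxidant response element core (TGACNNNGC) they were 14.2%, 13.5% and 16.7%. The TATA box (TATAAA) was in 7.52%, 9.38% and 16.7%, the E-box (CACGTG) in 10.2%, 8.33% and 0%, and the palindromic NRF1 motif in 2.02%, 1.04% and 4.17%. Over all 32851 promoters in the table, the shares were 33.8% for CCAAT, 6.91% for ETS, 32.7% for the GC box, 10.2% for the antioxidant response element core, 12.4% for the TATA box, 6.02% for the E-box and 0.782% for NRF1. Both strands were searched, no test was made, and a match is a run of letters and not a known binding site.

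The changes called in splicing factor mRNAs were small and all downwards with DI. Of the 122 members that could be tested, 25 were lower (20.5%), 0 were higher and 97 were not called by edgeR's quasi-likelihood test at an adjusted p under 0.05. Over all 12590 tested genes, 7.70% were lower and 7.14% were higher. At an unadjusted p under 0.05, 53 members were lower and 0 higher, and DESeq2 and limma-voom also called 0 members higher. The median log2 fold change of the members was −0.15, with a range from −0.69 to 0.26, while the median of all tested genes was 0.0012. The log2 fold change was below 0 in 105 of the 122 members, compared with 49.8% of all tested genes. Both DI libraries lay below both DMSO libraries in 78 members, compared with 29.6% of all tested genes, and above them in 4, compared with 29.0%. Rbmxl2, Gm4340 and Gm8994 had 0 counts in every library and were not tested.

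**Figure D1:**
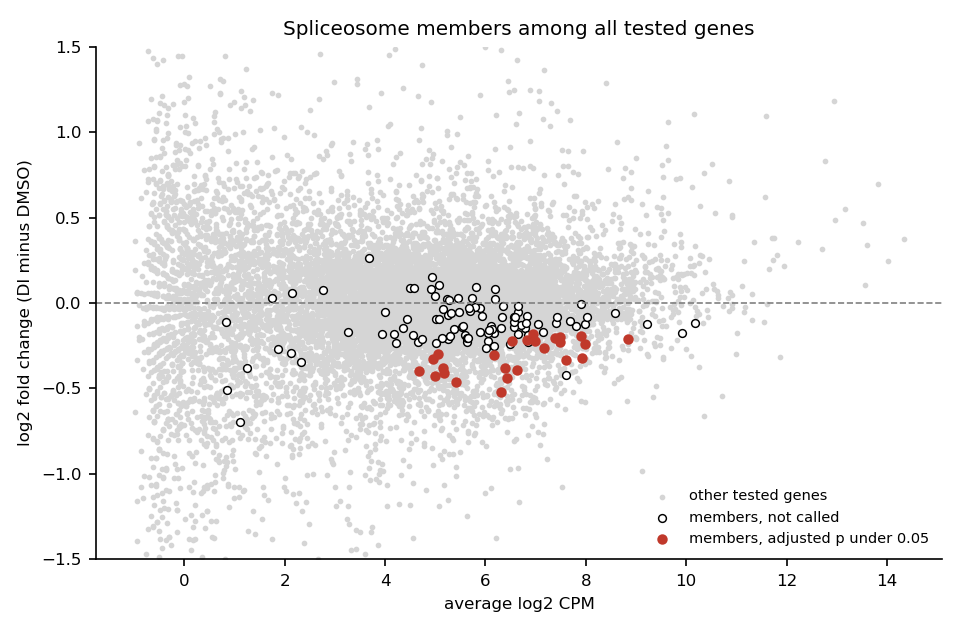
Each point is 1 of 12590 tested genes, with the average log2 CPM on the x axis and the log2 fold change (DI minus DMSO) on the y axis, which stops at ±1.5, so that 124 genes and 0 members lie outside it. Filled points are the 25 members with an adjusted p under 0.05, all below 0, and open points are the other tested members.

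The 25 members stood at 69.7% to 88.0% of their DMSO level, with adjusted p-values from 0.00300 to 0.0489. Both DI libraries lay below both DMSO libraries in all 25, so this separation, where named below, is not further support for a call. No member changed by more than 1 on the log2 scale, while 375 of the tested genes (2.98%) did. For 81 of the 97 members that were not called, the 95% interval of the log2 fold change lay between −0.5 and 0.5. The median of the 25 lower members, −0.30, also lies in this range, so it does not show that the others were unchanged. By the same test, 28 of the 97 were lower at an unadjusted p under 0.05. Members were expressed more highly than most genes, with a median average log2 CPM of 5.89 against 4.70. Above an average log2 CPM of 5, a limit chosen after the data were seen, 23 of 94 members were lower and 0 higher, compared with 11.3% lower and 12.4% higher of 5623 genes. The number of members lower was 14 without DI replicate 1, 13 without DI replicate 2, 8 without DMSO replicate 1 and 10 without DMSO replicate 2, when 5.66%, 5.07%, 4.49% and 4.19% of all tested genes were lower. With scaling by library size only, 60 members were lower and 15.3% of all tested genes, the median of which then moved to −0.10.

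**Figure D2:**
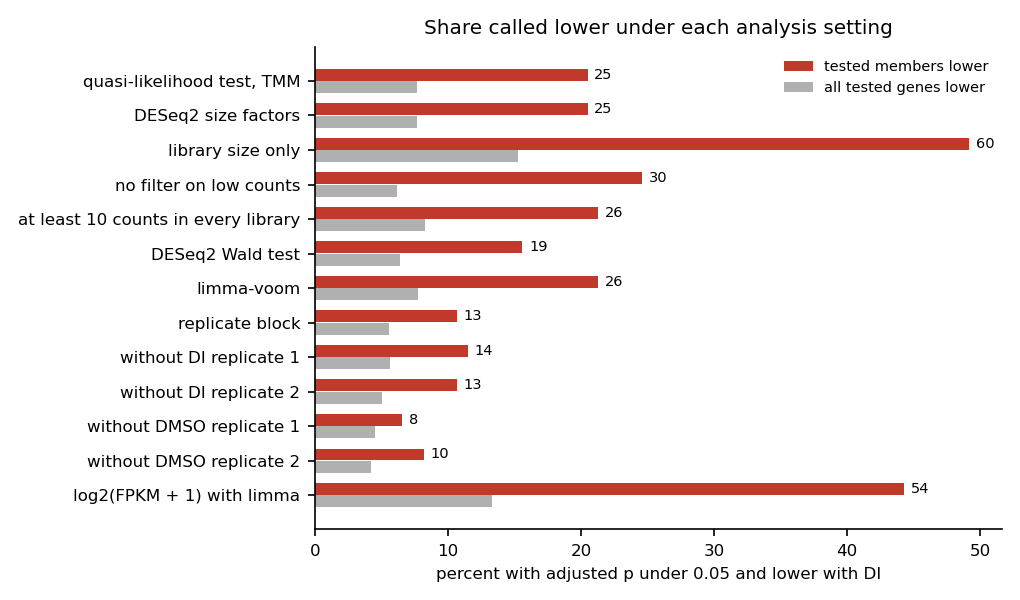
Bars give the percent of tested members and of all tested genes that were lower with DI at an adjusted p under 0.05, for the test as reported and for each of 12 alternatives, with the x axis in percent. Members lie above all genes under every setting, by the least without DMSO replicate 1, at 6.56% against 4.49%.

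In all, 6 members kept their call under all 12 alternatives, among them Hnrnpa1, Prpf38b, Sf3b3, Srsf10 and Srsf2. All 25 stayed below 0 under every alternative. In the deposited table on GRCm38, Hnrnpa1 lies on chr15:103240432-103244955, Prpf38b on chr3:108902805-108911727, Sf3b3 on chr8:110810492-110846803, Srsf10 on chr4:135855747-135869908 and Srsf2 on chr11:116849901-116853094. The members lower with DI lay on 15 of the 20 chromosomes that carry a member. Chromosome 17 held 7 of them (Cdc5l, Ddx39b, Hnrnpm, Lsm2, Ppil1, Srsf3 and Srsf7) among 13 tested members, while 8.45% of the 651 tested genes on chromosome 17 were lower. This chromosome was picked out after its values were seen.

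**Figure D3:**
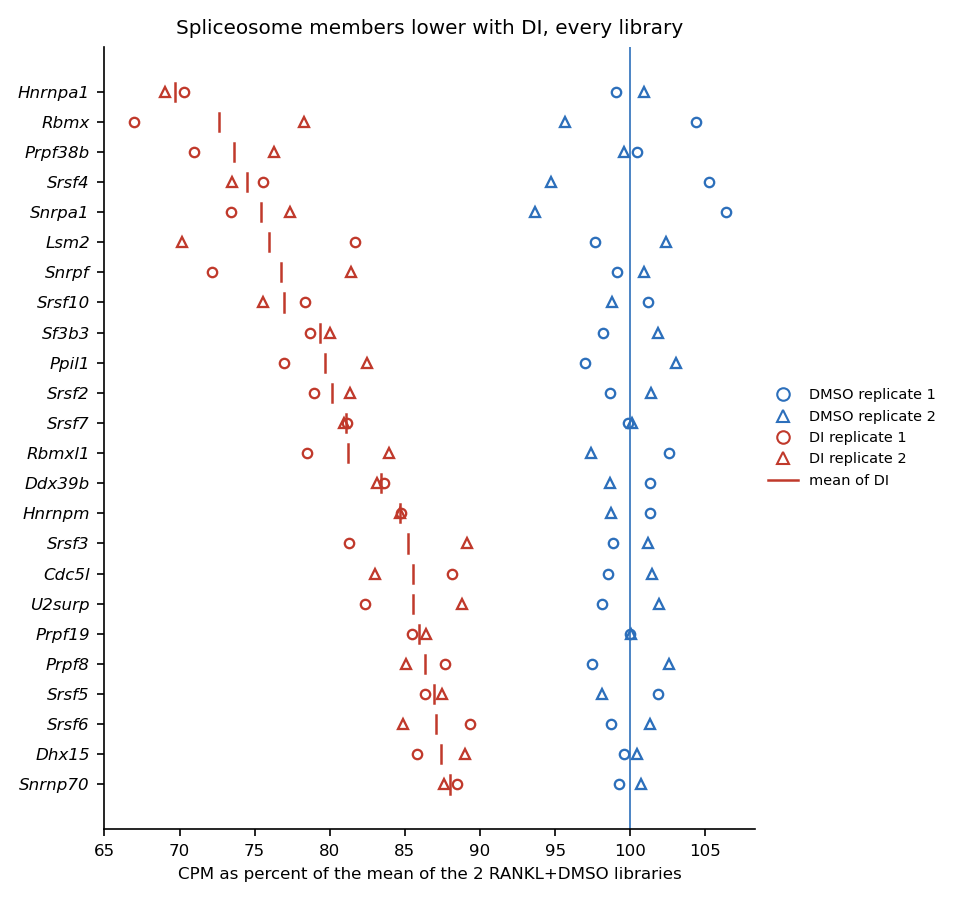
Each row is 1 of 24 of the 25 members lower with DI, and points give the CPM of each library as a percent of the mean of the 2 DMSO libraries, with circles for replicate 1 and triangles for replicate 2. The DI libraries lie to the left of the DMSO libraries in every row, with means between 69.7% and 88.0% of DMSO.

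With all 4 libraries, the SR and TRA2 class had the highest share of lower genes of any class. It had 7 of 10 tested genes lower (70%, beside 7.70% of all tested genes). Without DI replicate 2 the hnRNP class ranked above it, in a fit that rests on DI replicate 1 alone for DI. In that library Hnrnpc, an hnRNP gene, stood at 137 CPM, beside 194 CPM in DI replicate 2. SR and TRA2 proteins bind RNA, carry domains rich in arginine and serine and promote exon inclusion and splice site recognition. Of 8 tested Srsf genes with the pathway entry, 7 were lower. Of the 2 tested Tra2 genes, which encode related sequence-specific activators, none was called by edgeR although 1 had an unadjusted p under 0.05. The median log2 fold change of the 10 genes was −0.24, and their summed level was 1036 and 1062 CPM with DI and 1247 and 1244 CPM with DMSO. Srsf2, which encodes SC35, had 213 and 219 CPM with DI and 266 and 273 CPM with DMSO. The DI libraries both lay below the DMSO libraries, and Srsf2 was lower, with a log2 fold change of −0.32 (SE 0.041, adjusted p = 0.00601). Srsf10, whose product is known as a regulator that is switched by dephosphorylation during heat shock, had 74.6 and 71.9 CPM with DI and 96.3 and 94.0 CPM with DMSO. Its groups did not overlap, with a log2 fold change of −0.38 (SE 0.053, adjusted p = 0.00810). Srsf4, which encodes SRp75, had the largest change of the class, with 27.6 and 26.9 CPM with DI and 38.5 and 34.6 CPM with DMSO. Its values fell into separate groups as well, with a log2 fold change of −0.43 (SE 0.080, adjusted p = 0.0201).

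The other 4 lower Srsf genes changed less. Srsf7, which encodes 9G8, had 64.6 and 64.4 CPM with DI and 79.5 and 79.7 CPM with DMSO, and the 2 libraries of each group were nearly equal, with a log2 fold change of −0.30 (SE 0.054, adjusted p = 0.0170). Srsf3, the smallest SR protein, had 158 and 173 CPM with DI and 192 and 196 CPM with DMSO, with a log2 fold change of −0.23 (SE 0.056, adjusted p = 0.0442). Srsf5 changed by −0.20 (adjusted p = 0.0297) and Srsf6 by −0.20 (adjusted p = 0.0383), and both had groups that did not overlap. Srsf9 was the exception among the Srsf genes with the pathway entry, with 36.5 and 39.5 CPM with DI and 38.4 and 36.3 CPM with DMSO. Its groups overlapped, and its log2 fold change was 0.026 with a 95% interval from −0.16 to 0.21. Tra2a had a log2 fold change of −0.25 (adjusted p = 0.0637) and Tra2b of −0.15 (adjusted p = 0.196), and neither was called. On the FPKM scale, which allows for gene length, Srsf2 was the most abundant of the class at a mean of 41.5 FPKM over the 4 libraries, and Srsf4 the least at 6.97 FPKM. The number of SR and Tra2 genes lower was 4, 3, 2 and 3 when DI replicate 1, DI replicate 2, DMSO replicate 1 and DMSO replicate 2 were left out in turn. Srsf1, the best known SR protein, has no entry for the pathway in the table and was not called. It had 75.9 and 94.2 CPM with DI and 96.4 and 102 CPM with DMSO, with a log2 fold change of −0.22 (SE 0.10, adjusted p = 0.227). Srsf11, also without the entry, was not called either, with a log2 fold change of −0.075 (SE 0.045, adjusted p = 0.325).

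**Figure D4:**
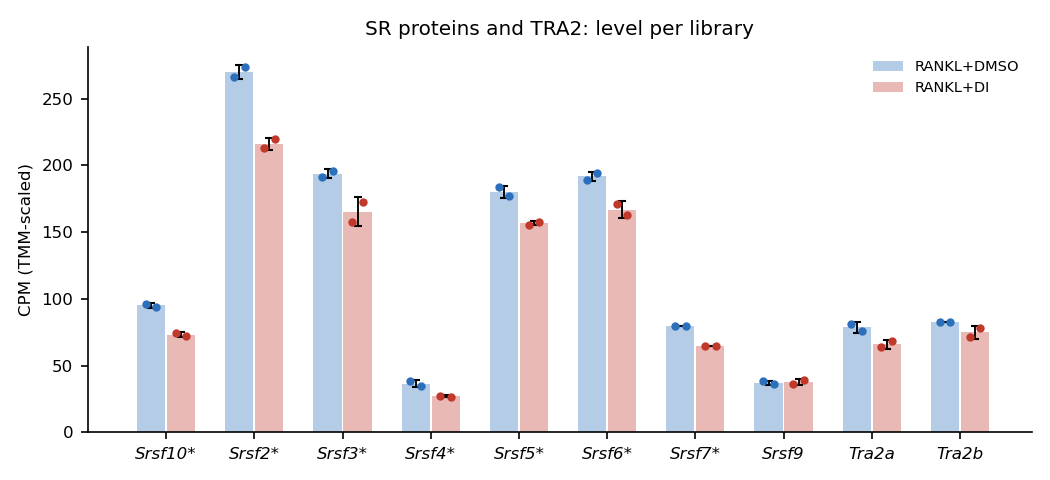
Bars give the mean level in CPM (TMM-scaled, y axis from 0) of each SR protein and TRA2 gene with DMSO and with DI, points the 2 libraries of each group and error bars the SD (n = 2). An asterisk after a name marks an adjusted p under 0.05, and the 7 genes so marked have both DI points below both DMSO points.

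Among the hnRNP genes, 4 of 9 tested were lower (44.4%, beside 7.70% of all tested genes) and the median log2 fold change was −0.24. Hnrnpa1, whose product represses many exons and shuttles between nucleus and cytoplasm, had the largest change of all called members. Its counts were 1133 and 1216 with DI and 1733 and 1579 with DMSO. On the CPM scale these were 66.0 and 64.9 with DI and 93.0 and 94.8 with DMSO, so that each group was tight and the groups lay far apart, with a log2 fold change of −0.52 (SE 0.053, adjusted p = 0.00300). Rbmx, which encodes hnRNP G, had 33.2 and 38.8 CPM with DI and 51.8 and 47.4 CPM with DMSO and was lower, with a log2 fold change of −0.46 (SE 0.096, adjusted p = 0.0289). Its intronless relative Rbmxl1 had 28.8 and 30.8 CPM with DI and 37.7 and 35.8 CPM with DMSO and was lower, with a log2 fold change of −0.30 (SE 0.073, adjusted p = 0.0444). Hnrnpm, which binds stretches rich in G and U, had 233 and 233 CPM with DI and 278 and 271 CPM with DMSO, with a log2 fold change of −0.24 (SE 0.038, adjusted p = 0.0125).

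The other hnRNP genes were not called. Hnrnpc, which binds runs of U, had a large difference with 137 and 194 CPM with DI and 222 and 222 CPM with DMSO. DI replicate 1 was far below DI replicate 2, and the log2 fold change of −0.42 had an adjusted p of 0.124. In Hnrnpa3 the libraries of each group disagreed, with 6.47 and 27.5 CPM with DI and 33.1 and 6.78 CPM with DMSO. Its log2 fold change ran from −1.63 to 1.33 over the alternatives, and 21 other genes share sequence with it, so no direction can be given. Hnrnpu, which encodes a scaffold protein of the nucleus, had a log2 fold change of −0.12 (adjusted p = 0.0817) and Hnrnpk of −0.13 (adjusted p = 0.285). Pcbp1, a binder of C-rich RNA and at 130.2 FPKM the most abundant of all members per length, had 241 and 234 CPM with DI and 239.6 and 238 CPM with DMSO. Its log2 fold change was −0.0056, with a 95% interval from −0.10 to 0.091. Hnrnpa1 kept its call under all 12 alternatives, while Rbmx, Rbmxl1 and Hnrnpm lost it under 4, 7 and 1 of them. The log2 fold change of Hnrnpc ran from −0.70 to −0.19 over the alternatives.

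Of the 8 tested genes of the U1 snRNP and factors associated with it, 2 were lower (25%, beside 7.70% of all tested genes). The median log2 fold change was −0.17. Snrnp70, which encodes the U1-70K protein, had 116 and 115 CPM with DI and 131 and 133 CPM with DMSO and was lower, with a log2 fold change of −0.18 (SE 0.043, adjusted p = 0.0391). Of the other 2 proteins specific to U1, Snrpa had a log2 fold change of −0.19 (adjusted p = 0.203) and Snrpc of 0.018 (adjusted p = 0.917). Ddx5, an RNA helicase and the most abundant gene of the class at 102 FPKM, had 952 and 869 CPM with DI and 1026 and 1031 CPM with DMSO and was not called, with a log2 fold change of −0.18 (SE 0.049, adjusted p = 0.0672). Snrnp70 lost the call under 7 of the 12 alternatives, each left-out library among them, while its log2 fold change stayed between −0.29 and −0.17.

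The U2 class was the largest with 23 tested genes, of which 4 were lower (17.4%, beside 7.70% of all tested genes). Its median log2 fold change was −0.14. Both DI libraries lay below both DMSO libraries in 17 of the 23 (73.9%), compared with 29.6% of all tested genes. They lay above both in 2, compared with 29.0% of all tested genes. Snrpa1, which encodes the U2-specific protein A′, had 30.2 and 31.8 CPM with DI and 43.7 and 38.5 CPM with DMSO and was lower, with a log2 fold change of −0.41 (SE 0.085, adjusted p = 0.0287). Sf3b3 encodes a scaffold subunit of SF3B, the complex that holds the branch site. It had 172 and 175 CPM with DI and 214 and 222 CPM with DMSO, with groups that did not overlap and a log2 fold change of −0.33 (SE 0.042, adjusted p = 0.00580). U2surp and the helicase gene Dhx15, which takes part in spliceosome disassembly, changed by −0.23 (adjusted p = 0.0444) and −0.19 (adjusted p = 0.0281). Sf3b3 was the one lower gene among the 10 tested genes of SF3A and SF3B. Sf3b1, the largest SF3B subunit, had a log2 fold change of −0.060 with a 95% interval from −0.19 to 0.075, and Sf3b2, the most abundant gene of the class at 80.8 FPKM, had −0.084 with an interval from −0.18 to 0.0097. Neither U2af1 (−0.18) nor U2af2 (−0.085), the genes of the U2AF subunits, was called. Their relative U2af1l4 had the highest log2 fold change of all members, with 13.2 and 14.7 CPM with DI and 11.4 and 11.8 CPM with DMSO, and both DI libraries lay above both DMSO libraries. At a log2 fold change of 0.26 (SE 0.11, adjusted p = 0.178) it was not called. U2af1l4 shares 97.4% of its transcript with Gm49396, and 65.6% of its exons are overlapped on the same strand, so its value is uncertain. The number lower in the U2 class was 1, 2, 1 and 2 when DI replicate 1, DI replicate 2, DMSO replicate 1 and DMSO replicate 2 were left out in turn.

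Among 15 tested genes of the U5 and U4/U6 snRNPs and the tri-snRNP, 2 were lower (13.3%, beside 7.70% of all tested genes). The median log2 fold change was −0.15. Prpf38b had 70.0 and 75.3 CPM with DI and 99.0 and 98.2 CPM with DMSO and was lower, with a log2 fold change of −0.44 (SE 0.058, adjusted p = 0.00668). Prpf8, which encodes the protein at the catalytic centre and is the most abundant of the class at 53.6 FPKM, had 429 and 417 CPM with DI and 477 and 502 CPM with DMSO and was lower, with a log2 fold change of −0.21 (SE 0.042, adjusted p = 0.0242). The genes of its U5 partners were not called. Eftud2, the GTPase, had a log2 fold change of −0.18 (adjusted p = 0.0545), and Snrnp200, the helicase that unwinds U4/U6, had −0.12 (adjusted p = 0.122). Of the 15 genes, 2, 1, 2 and 1 were lower when DI replicate 1, DI replicate 2, DMSO replicate 1 and DMSO replicate 2 were left out in turn.

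Of 19 tested genes of the PRP19 complex and related factors, 3 were lower (15.8%, beside 7.70% of all tested genes). The median log2 fold change was −0.13. Prpf19, which encodes the ubiquitin ligase that names the complex, had 104 and 105 CPM with DI and 121 and 121 CPM with DMSO and was lower, with a log2 fold change of −0.22 (SE 0.044, adjusted p = 0.0255). Its partner Cdc5l had 87.7 and 82.7 CPM with DI and 98.1 and 101 CPM with DMSO and was lower, with a log2 fold change of −0.23 (SE 0.055, adjusted p = 0.0468). Ppil1, which encodes a prolyl isomerase, had 26.6 and 28.5 CPM with DI and 33.6 and 35.7 CPM with DMSO and was lower, with a log2 fold change of −0.33 (SE 0.076, adjusted p = 0.0403). In each of these 3 the groups did not overlap, as in all 25 lower members and, with DI below, in 29.6% of all tested genes. Cwc15, the most abundant gene of the class at 85.0 FPKM, was not called, with −0.082 and an interval from −0.22 to 0.056. The DESeq2 Wald test called 1 gene of the class. Prpf19, Cdc5l and Ppil1 lost the call under 5, 6 and 5 of the 12 alternatives, among them every left-out library. Their log2 fold changes stayed below 0, at −0.21, −0.18 and −0.28 or lower. None of the 5 tested genes for the catalytic-step helicases and second-step factors was called by edgeR, DESeq2 or limma-voom, while 1 had an unadjusted p under 0.05. Their median log2 fold change was −0.081, and Dhx38, the helicase gene with the highest level of the class at 26.8 FPKM, had 108 and 107 CPM with DI and 118 and 115 CPM with DMSO and a log2 fold change of −0.11 (SE 0.045, adjusted p = 0.156).

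Of the 14 tested Sm and LSm genes, 2 were lower (14.3%, beside 7.70% of all tested genes) and the median log2 fold change was −0.17. Snrpf, an Sm ring gene, had 28.9 and 32.6 CPM with DI and 39.7 and 40.4 CPM with DMSO and was lower, with a log2 fold change of −0.38 (SE 0.080, adjusted p = 0.0297). Lsm2, which belongs to the LSm ring on U6, had 23.7 and 20.4 CPM with DI and 28.3 and 29.7 CPM with DMSO and was lower, with a log2 fold change of −0.40 (SE 0.099, adjusted p = 0.0489), the value nearest to the threshold of the 25. Snrpd1, the most abundant of the class at 77.4 FPKM, had 56.7 and 60.6 CPM with DI and 73.7 and 67.3 CPM with DMSO and just missed it, with a log2 fold change of −0.27 (SE 0.073, adjusted p = 0.0653). Sm and LSm genes lower numbered 1, 1, 0 and 0 when DI replicate 1, DI replicate 2, DMSO replicate 1 and DMSO replicate 2 were left out in turn, with medians of the class from −0.26 to −0.12.

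Ddx39b, an RNA helicase of the TREX complex that loads export factors onto spliced mRNA, was the one lower gene among 13 tested genes of the exon junction complex, TREX and the cap-binding complex, a share of 7.69% beside 7.70% of all tested genes. It had 132 and 131 CPM with DI and 159 and 155 CPM with DMSO, with a log2 fold change of −0.26 (SE 0.042, adjusted p = 0.0124), and lost the call without DMSO replicate 1. The median of these 13 genes was −0.14. Alyref, the export adaptor, had a log2 fold change of −0.22 (adjusted p = 0.0643), and Eif4a3, the helicase core of the exon junction complex, had −0.13 (adjusted p = 0.296).

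The pathway also lists 5 HSP70 chaperone genes, none of which was called by edgeR, DESeq2 or limma-voom, with 1 at an unadjusted p under 0.05. Hspa8, the constitutive chaperone, had 1189.8 and 1028 CPM with DI and 1214 and 1189 CPM with DMSO, and its groups overlapped, with a log2 fold change of −0.12 (SE 0.069, adjusted p = 0.322). The heat-inducible Hspa1a and Hspa1b were expressed at a low level, and 78.5% of the Hspa1b transcript is shared with Hspa1a. The DI libraries held 29 and 27 counts of Hspa1b, the DMSO libraries 41 and 48, and its log2 fold change of −0.69, the lowest of all members, had a 95% interval from −1.35 to −0.044 and an adjusted p of 0.145. Over the 12 alternatives, the log2 fold change of Hspa8 ran from −0.23 to −0.012 and that of Hspa1b from −0.88 to −0.33. Hspa2 had a log2 fold change of −0.27 and Hspa1l of −0.11. Rp9, the 1 tested member outside these classes, had 21.2 and 25.1 CPM with DI and 21.4 and 22.2 CPM with DMSO and a log2 fold change of 0.090 (SE 0.11, adjusted p = 0.629).

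**Figure D5:**
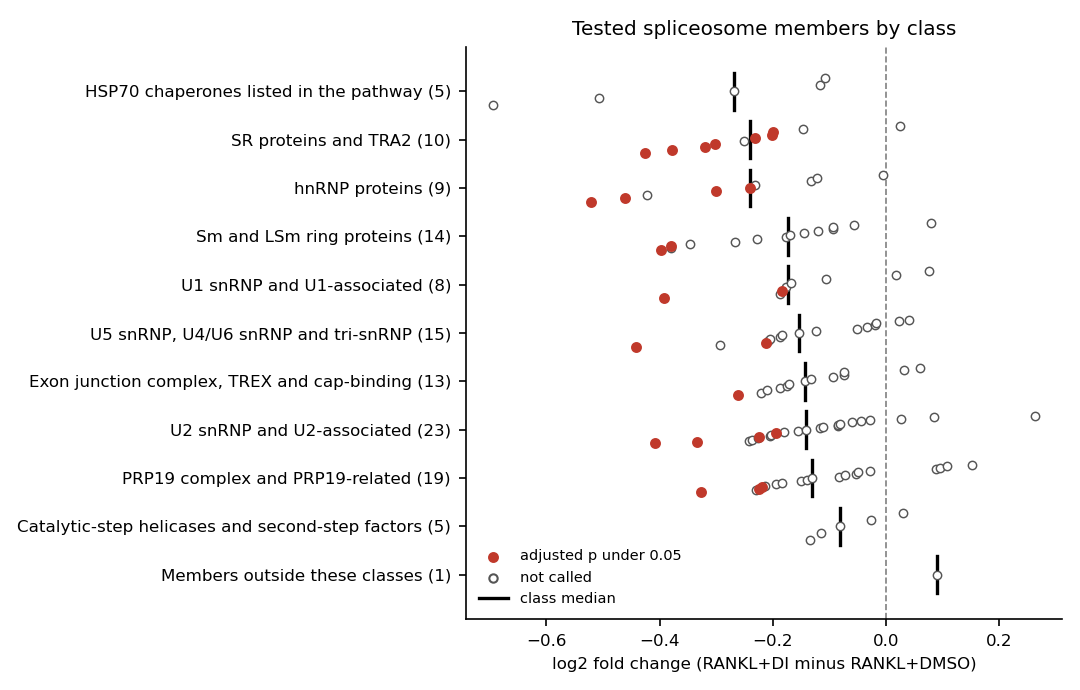
Each point is a tested member, placed by its log2 fold change (DI minus DMSO, x axis) in the row of its class, with the number tested in parentheses. Filled points have an adjusted p under 0.05 and the black mark is the class median, which is below 0 in all 10 classes and lowest for the HSP70, SR and hnRNP rows, while Rp9, alone in its row, lies at 0.090.

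Among splicing factors outside the pathway entry, most of the called genes were lower too. The 106 tested genes on 5 lists had a median log2 fold change of −0.15. In all, 18 of them were lower (17%) and 1 was higher (0.943%), beside 7.70% and 7.14% of all tested genes. Most of these were in the list of other splicing regulators, where 14 of 53 were lower (26.4%). With DI replicate 1, DI replicate 2, DMSO replicate 1 and DMSO replicate 2 left out in turn, 9, 10, 7 and 9 of the 106 genes were called. Hnrnph1, which binds runs of G, had 141 and 157 CPM with DI and 223 and 206 CPM with DMSO and was lower, with a log2 fold change of −0.52 (SE 0.068, adjusted p = 0.00634). Tardbp, which encodes TDP-43, had 57.5 and 74.3 CPM with DI and 91.6 and 95.8 CPM with DMSO and was lower, with a log2 fold change of −0.51 (SE 0.12, adjusted p = 0.0417). Ptbp1, a repressor that binds pyrimidine tracts, had 136 and 139 CPM with DI and 170.4 and 219.6 CPM with DMSO, with DMSO replicate 2 well above DMSO replicate 1, and was lower, with a log2 fold change of −0.50 (SE 0.11, adjusted p = 0.0370). Antisense genes overlap 20.7% of the exons of Ptbp1 and 23.3% of those of Tardbp, and 29.1% of those of Hnrnpab, named next. Some lower genes on this list also share sequence with other genes, among them Ewsr1 (76% of a transcript, with Gm6627) and Nono (55.4%, with Gm8806). The other 11 lower genes were Hnrnpul1 (−0.28), Khdrbs1 (−0.28), Hnrnpab (−0.27), Hnrnpa2b1 (−0.26), Sfpq (−0.24), Pnn (−0.21), Ewsr1 (−0.19), Nono (−0.19), Srrm1 (−0.18), Son (−0.18) and Syncrip (−0.17), all log2 fold changes. Hnrnph1, Hnrnpul1, Khdrbs1, Hnrnpab and Hnrnpa2b1 kept the call under all 12 alternatives. Syncrip lost it under 8, Pnn and Srrm1 under 6, Ewsr1, Nono and Son under 5, and Sfpq, Tardbp and Ptbp1 under 2. Sfpq and Nono encode the paired core proteins of paraspeckles, and Son and Srrm1 encode proteins of nuclear speckles. Mbnl3 (−0.76, adjusted p = 0.440) and Tia1 (−0.54, adjusted p = 0.150) had larger values that were not called.

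In the list of the SMN complex and snRNP assembly, 2 of 17 tested genes were lower (11.8%, beside 7.70% of all tested genes). Gemin5, the subunit that recognizes snRNAs, had 38.4 and 41.2 CPM with DI and 56.5 and 52.6 CPM with DMSO and was lower, with a log2 fold change of −0.45 (SE 0.074, adjusted p = 0.0133). Prmt5, which methylates Sm proteins before assembly, had 49.2 and 46.8 CPM with DI and 60.3 and 58.0 CPM with DMSO and was lower, with a log2 fold change of −0.30 (SE 0.064, adjusted p = 0.0305). Gemin6 (−0.48, adjusted p = 0.0820) and Lsm11 (−0.38, adjusted p = 0.0626) were not called. Of 9 tested kinases of SR proteins and splicing factors, 1 was lower (11.1%). This was Prpf4b, with a log2 fold change of −0.21 (SE 0.046, adjusted p = 0.0313), which lost the call under 6 of the 12 alternatives. Dyrk2 (−0.35, adjusted p = 0.0803) and Srpk1 (−0.19, adjusted p = 0.0849) were not called. Of 14 tested core factors that lack the pathway entry, 1 was lower (7.14%, beside 7.70% of all tested genes). This was Luc7l2, a U1-associated factor, with a log2 fold change of −0.28 (SE 0.053, adjusted p = 0.0212). An antisense gene overlaps 18.9% of its exons. Sart3 (−0.29, adjusted p = 0.0553) and Cd2bp2 (0.50, adjusted p = 0.255) were not called.

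In the list of the minor spliceosome, which removes the rare U12-type introns, 1 of 13 tested genes was called and it was higher. This share of 7.69% stands beside 7.14% of all tested genes higher. Zrsr1, related to the small subunit of U2AF, had 14.9 and 14.5 CPM with DI and 11.0 and 10.7 CPM with DMSO and rose, with a log2 fold change of 0.44 (SE 0.10, adjusted p = 0.0398). It lost the call under 8 of the 12 alternatives, each of the 4 left-out libraries among them. Rnpc3 (−0.29, adjusted p = 0.206) and Dhx32 (0.22, adjusted p = 0.246) had the next largest values and were not called. The median of the 13 genes was −0.10.

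Other pathways of RNA handling, without the spliceosome members, gave these values in the same test. Over all tested genes, 7.70% were lower and 7.14% higher, or 11.3% and 12.4% above an average log2 CPM of 5. In RNA transport, 28 of 133 tested genes were lower and 2 higher, with a median of −0.15. In ribosome biogenesis in eukaryotes, 19 of 70 were lower and 0 higher by edgeR, with 1 higher at an unadjusted p under 0.05 and a median of −0.19. In mRNA surveillance, 7 of 64 were lower (10.9%) and 2 higher, and in RNA degradation 6 of 64 (9.38%) and 1. Among the genes of the Ribosome pathway, 15 of 126 were lower (11.9%) and 1 higher, with a median of −0.052. These last shares of lower genes were near those of all tested genes. The spliceosome share of 20.5% thus lay near that of RNA transport (21.1%) and below that of ribosome biogenesis (27.1%), and these differences were not tested.

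Some members share sequence with other genes, and no source used here says how the counting treated such reads or strand, so their values are uncertain. By BLAST against GENCODE M21 transcripts, 9 of the 25 lower members and 35 of the 122 tested members shared at least 95% identity over at least 20% of a transcript with another gene. The 9 lower members were Cdc5l, Hnrnpa1, Hnrnpm, Rbmxl1, Snrpf, Srsf2, Srsf3, Srsf4 and Srsf5. Hnrnpa1 shared sequence with 9 genes, up to 35.8% of its transcript with Gm16216, and Rbmxl1 shared 95.2% with Gm7324. Exons of 5 lower members were overlapped by another gene over more than 5% of their length: Snrpf (85.4%, opposite strand), Srsf4 (43.0%, opposite), Srsf2 (25.3%, opposite), Hnrnpm (14.7%, same strand) and Ppil1 (7.53%, opposite). Prpf38b, Sf3b3 and Srsf10, which kept their call under all alternatives, were free of shared sequence by this measure.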

How the data were processed

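Messenger RNA of BMMs given RANKL with DI or with DMSO for 24 h was sequenced in 2 libraries per group, and the groups follow the labels. The dose of DI is 20 mM per the labels and is given in μM in the study's methods. The authors deposited unnormalized read counts for each gene, and FPKM values, which are scaled for gene length and library total. A second deposited table repeats these values with KEGG pathway names, which defined the members. The submitters' processing notes name GRCm38 and mm10, and the aligner and the counting program are not given in the sources used here.

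Counts were tested in R 4.3.3 with edgeR 4.0.16 (TMM factors, default filter on low counts, quasi-likelihood test with the condition as its only term, Benjamini-Hochberg adjustment over 12590 genes). Totals of 16085692 to 19403480 counts per library set the precision. CPM were scaled by TMM factors. The 10 classes of members and the lists outside the pathway were written from general knowledge. The members, classes and lists were chosen with earlier results of these data known. Named by rule were the 12 lowest called members with an average log2 CPM over 1, the member with the highest FPKM in each class, the single member outside the classes, and, outside the pathway, called genes and the 3 largest changes per list. The Srsf, hnRNP and Hspa members were to be given at least as counts. Other members, the remaining called ones among them, were named after their values were seen. The alternatives were DESeq2 1.42.0 (size factors, Wald test), library size only, no filter, a minimum of 10 counts, limma-voom (limma 3.58.1), log2(FPKM + 1) with limma, the replicate number as a block, and each library left out. A member that the rule names is not reported here. Nova2 was left out because its symbol has more than 1 identifier. Transcripts were compared by BLAST 2.17.0, and promoters were taken from RefSeq (GRCm38.p6). Only the edgeR, limma-voom and DESeq2 fits were tested on simulated counts, and the other steps were not. Most of the changes called here were smaller than any that was simulated.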

Additional observations from a re-analysis of the deposited data

How the results depend on the processing

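The median difference between members and all tested genes was stable over the 12 alternatives, between −0.17 and −0.14 on the log2 scale, while the number of members past the threshold was not. Of the 25 members lower, 6 kept the call under all 12, all 25 kept a log2 fold change below 0, and 0 members were called higher under any of them. With library size only, 60 members were called, all lower, beside 15.3% of all tested genes lower, and with log2(FPKM + 1) and limma 54 were called beside 13.3%. The median of the members then moved to −0.26 and −0.23, and the median of all tested genes to −0.10 and −0.068, so these settings shift all genes downwards. Of the genes outside the pathway, 42 and 31 were called under these settings, compared with 19. The DESeq2 Wald test called 19 members (6.43% of all tested genes lower), no filter 30 (6.17%), a minimum of 10 counts 26 (8.26%), limma-voom 26 (7.78%) and DESeq2's size factors 25 (7.64%), compared with 25 and 7.70% as reported. With each library left out in turn, the lone library being assumed to vary like the others, 8 to 14 members were called, all lower, and 7 to 10 genes outside the pathway. The median of the members was then −0.18 to −0.14 and that of all tested genes −0.0025 to 0.0019, and that of Rp9 −0.035 to 0.20.

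With the replicate number as a block, 13 members were called, all lower (10.7%, compared with 5.59% of all tested genes), and 10 genes outside the pathway. The labels do not tie the same number in both groups to a shared mouse, culture or day. The correlation of the differences between replicates 1 and 2 in the 2 groups was −0.030, so no shared effect was seen. This value cannot tell whether libraries of the same number came from a shared mouse, culture or day, and no pairing was assumed. Counting error alone does not give the spread between libraries, since the chi-square per degree of freedom between replicates was 7.57 with DI and 7.74 with DMSO.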
